A study of Mus musculus with 25 samples.

Results

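Expression of 10 genes of the piRNA pathway was followed through mouse spermatogenesis in single-cell RNA libraries made by Drop-seq, in which droplets join a cell to a barcoded bead and transcripts are counted at their 3′ ends as unique molecular identifiers (UMIs). The genes were taken by name from the rows of all count tables: Piwil1, Piwil2, Piwil4, Tdrd1, Tdrd5, Tdrd6, Tdrd9, Mael, Ddx4 and Mov10l1, 10 of 29244 gene symbols. Whole testes gave 21 libraries, namely 11 from wild-type mice, 6 from Mlh3-/- mice, 2 from Cul4a-/- mice and 2 from CNP mice, the last carrying a CNP eGFP BAC TRAP transgene. A further 4 libraries, 1 of each kind, held sorted spermatogonia, primary spermatocytes, secondary spermatocytes and spermatids. Wild-type and CNP mice were labelled C57BL/6 and both mutants B6;129, so that genotype and background cannot be told apart. For the Mlh3 line the study's methods give B6.129 instead. By the labels, wild-type mice were aged from 3 months 1 day to 9 months 14 days and Mlh3-/- mice from 2 months 21 days to 8 months 30 days. The Cul4a-/- mice were aged 1 month 18 days and 1 month 21 days, and the CNP mice 2 months 14 days and 2 months 16 days. The study's own sample list gives the ages of the Cul4a-/- and CNP mice the other way round. Sorted spermatogonia came from pooled litter mates of mice labelled Pouf51-EGFP (Pou5f1-EGFP in the study's methods) on postnatal day 7, selected for GFP after enzymatic dissociation, and the other sorted cells from wild-type mice aged 2 months 21 days. All 4 sorted libraries are labelled C57BL/6, while the study's methods list the EGFP line as B6;CBA. Wild-type 1 and 2 were also dissociated with enzymes and all other libraries mechanically. The study's text counts every wild-type library as an animal of its own. For the mutant and CNP libraries the labels do not say so, and Mlh3-/- 2 and 3 carry the same age of 8 months 30 days, so p-values there measure the spread between libraries.

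Piwi-interacting RNAs (piRNAs) are small RNAs of the germ line that guide PIWI proteins to transposon and other transcripts. Long precursors are unwound and cut, loaded into PIWI proteins at germ granules beside mitochondria, and trimmed at their 3′ ends. In the mouse, fetal and neonatal germ cells use this pathway to methylate transposons, while pachytene spermatocytes make another, far more abundant population of piRNAs. Piwil1 (MIWI), Piwil2 (MILI) and Piwil4 (MIWI2) encode the PIWI proteins, the Tdrd genes encode Tudor proteins that tether them, Ddx4 (mouse VASA) and Mov10l1 encode RNA helicases, and Mael encodes a granule protein needed for transposon silencing.

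The tables held 65063387 UMIs over 48642 barcodes, with 357235 to 9745302 UMIs in a whole-testis library and 107117 to 1168498 in a sorted library. Depth differed by strain. The Cul4a-/- libraries held 9691555 and 9745302 UMIs, the CNP libraries 775386 and 1054964, and no wild-type library more than 3829176. The part of depth in the strain differences was not tested. After filtering, 36619 cells with a median of 668 UMIs were clustered without the 10 genes and without 19 other genes of the pathway, and 14279 cells fell into clusters that carried enough markers to be named. The filters kept 24.9% of Mlh3-/-, 95.9% of wild-type, 95.2% of Cul4a-/- and 56.2% of CNP barcodes. Without the limit on the mitochondrial transcript mt-Rnr2 they kept 85.7%, 98.0%, 99.9% and 57.6%, so that most Mlh3-/- barcodes were removed by that limit. No name was given to 68.33% of wild-type, 66.33% of CNP, 40.02% of Mlh3-/- and 37.39% of Cul4a-/- cells. Any 2 libraries shared at most 27 barcodes. Over whole libraries, the Mlh3, Cul4a and Cnp transcripts did not separate their strains from wild-type. Mlh3 stood at 26.2 to 86.5 CPM (the gene's UMIs per total UMIs of a library or class, scaled to the usual common total) in Mlh3-/- libraries and at 10.7 to 72.9 in wild-type. Such levels mix cell types. Within clusters, and by its factor analysis, the study saw no obvious expression phenotype of Mlh3-/- cells apart from differential expression of Mlh3. Reads at a 3′ end outside a deletion check nothing about it. Mael gave 67067 UMIs in all, Ddx4 24378, Piwil1 22300, Tdrd6 21365, Tdrd1 6359, Mov10l1 5099, Tdrd5 4522, Tdrd9 4028, Piwil2 3372 and Piwil4 55. Piwil4 was seen in 11 libraries and the other 9 genes in all 25. UMIs at 3′ ends are not a measure per transcript length, so levels are compared within a gene only.

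Promoters of 8 of the 10 genes were found in the RefSeq table for GRCm38.p6, Piwil2 and Tdrd6 being the others. Each spans 250 bases before to 50 after the RefSeq start site. The string CACGTG, an E-box, lay in the promoters of 6 of the 8 (Ddx4, Mael, Mov10l1, Piwil1, Tdrd1 and Tdrd9) and in 7.15% of 32851 promoters of the same length. Both strands were searched for 7 strings. A gene was counted if any of its promoters matched, while the percentages are over single promoters. Tdrd1 and Piwil4 had more than 1 promoter. TAACNG lay in 4 of the 8 (23.3% of all promoters), CAACNG in 3 (35.0%), GTTGCCN in 1 (12.5%), and TGACGTCA, CCGCCAT and CCGGAAG in none (1.79%, 4.05% and 8.86%). No CACGTG match in these promoters overlapped a match to another string. These are matches of letters and no evidence of binding. The promoters shown are those of a gene high in pachytene cells (Piwil1), of the gene highest in leptotene/zygotene cells (Mov10l1) and of the genes that carried on into round spermatids (Mael and Ddx4), and were picked after the matches were seen. Capitals mark CACGTG, which starts at positions -179 and -154 from the RefSeq start site for Piwil1 (chr5:128735996-128736295, plus strand), -246 for Mov10l1 (chr15:88982744-88983043, plus strand), -223 for Mael (chr1:166238695-166238994, minus strand) and -29 for Ddx4 (chr13:112652261-112652560, minus strand).
Piwil1: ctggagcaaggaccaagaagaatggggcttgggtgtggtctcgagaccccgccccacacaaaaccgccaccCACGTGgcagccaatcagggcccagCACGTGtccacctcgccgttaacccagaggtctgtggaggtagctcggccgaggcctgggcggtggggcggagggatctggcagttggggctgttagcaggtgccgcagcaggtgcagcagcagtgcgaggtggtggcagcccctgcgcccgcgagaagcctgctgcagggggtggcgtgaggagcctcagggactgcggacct
Mov10l1: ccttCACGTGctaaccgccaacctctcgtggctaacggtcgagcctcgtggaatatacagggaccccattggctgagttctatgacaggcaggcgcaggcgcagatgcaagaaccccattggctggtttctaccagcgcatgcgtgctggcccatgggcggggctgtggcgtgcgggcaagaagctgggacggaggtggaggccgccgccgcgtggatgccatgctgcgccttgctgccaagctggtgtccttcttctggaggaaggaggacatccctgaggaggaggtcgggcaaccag
Mael: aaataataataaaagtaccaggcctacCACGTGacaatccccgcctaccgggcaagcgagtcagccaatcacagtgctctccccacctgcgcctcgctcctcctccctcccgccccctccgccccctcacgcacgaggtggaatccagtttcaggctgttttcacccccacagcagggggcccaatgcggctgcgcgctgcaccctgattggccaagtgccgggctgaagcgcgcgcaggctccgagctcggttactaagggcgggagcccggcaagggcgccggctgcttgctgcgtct
Ddx4: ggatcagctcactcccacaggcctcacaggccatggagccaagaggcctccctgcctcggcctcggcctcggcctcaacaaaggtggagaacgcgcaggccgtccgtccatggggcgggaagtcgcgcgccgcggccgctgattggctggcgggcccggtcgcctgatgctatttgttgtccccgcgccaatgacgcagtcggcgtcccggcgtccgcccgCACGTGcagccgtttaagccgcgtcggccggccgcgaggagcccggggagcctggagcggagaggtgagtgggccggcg

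The order of the genes through germ cell development was read from levels summed over the cells of a class in each library, for libraries with at least 10 cells of that class. For spermatogonia these were Mlh3-/- and Cul4a-/- libraries only. Piwil4 was found in spermatogonia, Mov10l1 was highest in leptotene/zygotene cells, Piwil1, Tdrd1 and Tdrd5 were highest in pachytene cells, Piwil2 and Tdrd9 were present from spermatogonia to pachytene cells, Tdrd6 was high in pachytene and dividing cells alike, and Mael and Ddx4 carried on into round spermatids. Cells that should lack these transcripts also held some. Over the whole-testis libraries, 309 Leydig cells gave Piwil1 at 89.2 CPM and 374 Sertoli cells at 261 CPM, and Mael stood at 162 and 556 CPM in the same cells. Levels at or below these are read as background, the source of which was not tested. Somatic cells of wild-type testes alone, 42 Leydig and 108 Sertoli cells, held Piwil1 at 85.3 and 145 CPM, Tdrd6 at 142 and 184 CPM, Mael at 597 and 599.8 CPM and Ddx4 at 56.9 and 232 CPM, from 2 to 62 UMIs each. These are the background of the comparisons within wild-type.

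**Figure D1:**
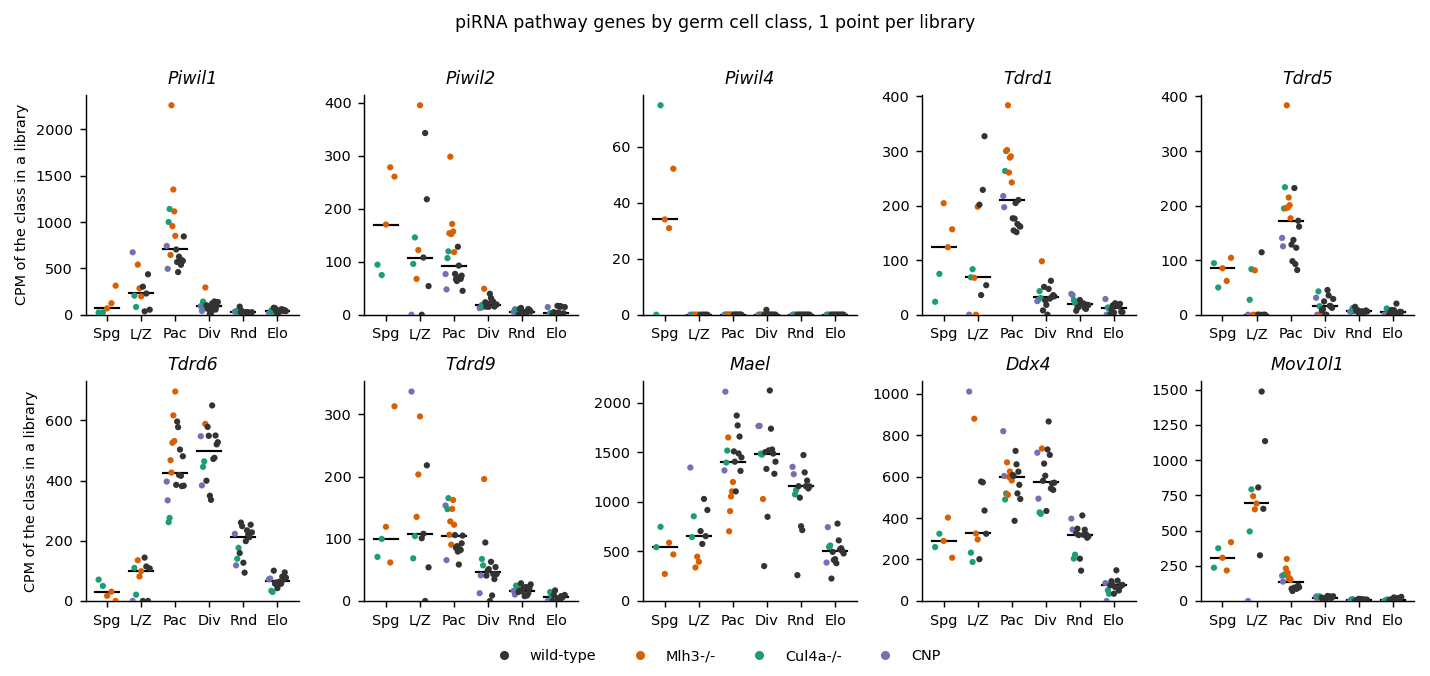
CPM of each gene (vertical axis) in spermatogonia (Spg), leptotene/zygotene (L/Z), pachytene (Pac), meiotic division (Div), round (Rnd) and elongating (Elo) spermatid classes. Each point is 1 whole-testis library with at least 10 cells of the class, coloured by strain, and bars are medians; the Piwil1 median was 704 CPM in pachytene against 26.6 in round spermatids, while Mael kept 1157 CPM there.

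Piwil4 (chr9:14696230-14740733), the nuclear PIWI protein of fetal gonocytes, was the rarest of the 10. In the 5 libraries with enough spermatogonia it stood at 0 and 74.8 CPM in Cul4a-/- 1 and 2, and at 34.1, 30.9 and 52.2 CPM in Mlh3-/- 2, 5 and 6. All but the value of Cul4a-/- 1 were thus above 0, though they rest on 1 to 3 UMIs each. The 28 wild-type spermatogonia, too few in any library to enter these levels, gave no UMI of Piwil4. No UMI was found among 293783 in leptotene/zygotene cells, which allows up to 12.6 CPM over counting error with a 95% Poisson interval, and none in pachytene cells, which allows up to 0.251 CPM. The difference between spermatogonia and leptotene/zygotene cells did not pass the test (adjusted p = 0.18, edgeR with Benjamini-Hochberg adjustment).

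Leptotene/zygotene cells differed from spermatogonia in 2 of the 10 genes, both higher, where 6.93% of all genes tested were called in this comparison of 11 against 5 libraries. Mov10l1, the helicase that binds piRNA precursors, stood at 236 and 374 CPM in the spermatogonia of Cul4a-/- 1 and 2 and at 306.5, 217 and 417 CPM in those of Mlh3-/- 2, 5 and 6. In leptotene/zygotene cells its levels ran from 0 to 1487 CPM with a median of 692. It rose by a log2 fold change of 1.48 ± 0.30 (SE, adjusted p = 7.1e-05, edgeR, Benjamini-Hochberg), though the groups overlapped. Piwil1, the PIWI protein of pachytene piRNAs, stood at 23.6, 24.9, 68.1, 124 and 313 CPM in the same 5 spermatogonia sets and at 36.0 to 673 CPM, median 229, afterwards. Sertoli cells held Piwil1 at 92.6 CPM in Cul4a-/-, 399.9 in Mlh3-/- and 145 in wild-type testes, and gave no UMI of it among 5507 in CNP testes. All 5 spermatogonia values lay below the Sertoli level of their own strain, as did the leptotene/zygotene values of Cul4a-/- 2, Mlh3-/- 5 and 6 and wild-type 8 and 11. The leptotene/zygotene values of Cul4a-/- 1, Mlh3-/- 2 and wild-type 4, 6 and 10 lay above it. For CNP 2 (673 CPM) the comparison decides nothing, since any UMI lies above a level of no UMI. Its change of 1.71 ± 0.46 (adjusted p = 0.0057, edgeR, Benjamini-Hochberg) was no longer called without Mlh3-/- 2 (1.14, adjusted p = 0.22) or by DESeq2 (adjusted p = 0.099), which called Mov10l1 alone and 894 of the 7451 genes it tested. The other 8 genes were not called. Besides Piwil4, which was at 0 in every leptotene/zygotene set, their log2 fold changes ran from -0.78 for Tdrd5 to 1.19 for Tdrd6. A gene that missed the threshold here is not shown to be equal in both classes. Later medians of Tdrd1 (68.5 CPM), Tdrd5 (0 CPM) and Tdrd6 (98.9 CPM) lay below the Sertoli levels of 97.8, 63.1 and 169 CPM. The median change was 0.21 over the 10 genes and 0.19 over all genes with at least 100 counts. Without the mt-Rnr2 limit, all 10 genes were called, where 17.5% of all genes tested were, and leptotene/zygotene cells rose from 241 to 472 in number. Tdrd1 and Tdrd5 then had log2 fold changes of 1.957 and 1.656.

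Among the other 19 genes of the pathway, 18 were tested at this step and 4 rose, with a median change of -0.11. They were Gpat2 (log2 fold change 2.25), a mitochondrial membrane protein of piRNA biogenesis, Mybl1 (1.91), the transcription factor of pachytene piRNA clusters, the Tudor gene Tdrd12 (1.82), and Tex15 (0.78), which is needed for transposon methylation. Tex15 stood at -1.07 without the mt-Rnr2 limit.

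Pachytene cells differed from leptotene/zygotene cells in 8 of the 10 genes, 7 higher and 1 lower, where 32.8% of all genes tested were called (19 against 11 libraries). With a stricter filter on counts (filterByExpr of edgeR), 7 of these genes and 67.1% of all genes tested were called. All changes of this step are best read against the median gene, which moved by 0.92 in the edgeR fit and by -0.19 with DESeq2. Of all called genes, 70.5% were higher by edgeR and 36.8% by DESeq2. Piwil1 had a median of 229 CPM in leptotene/zygotene and 704 CPM in pachytene cells, where the lowest library held 460 CPM and the highest 2260. It rose by 3.11 ± 0.23 on the log2 scale, 2.19 above the median gene (adjusted p = 1.2e-38, edgeR, Benjamini-Hochberg).

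The Tudor genes differed among themselves at this step. Tdrd5, whose protein binds piRNA precursors, was at 0 to 114 CPM before and at 81.9 to 384 CPM in pachytene cells, a change of 3.32 ± 0.39, or 2.40 above the median gene. Tdrd6, the scaffold of the chromatoid body, was at 0 to 144 CPM before and at 262 to 695.5 CPM after, so that the groups did not overlap, with a change of 3.22 ± 0.29, or 2.30 above the median gene. Tdrd1, a partner of MILI, changed by 2.38 ± 0.31, or 1.46 above the median gene. Tdrd9, a Tudor helicase that works with MIWI2, had medians of 108 CPM before and 105 CPM after. Its call (1.03 ± 0.31, adjusted p = 0.0044, edgeR, Benjamini-Hochberg) was 0.11 above the median gene. DESeq2 did not make it (0.20, adjusted p = 0.65), and it was lost without Cul4a-/- 1 (adjusted p = 0.058). Without the mt-Rnr2 limit the value was -0.15.

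Mov10l1 was the gene that fell, from a median of 692 to 137 CPM, by 1.32 on the log2 scale (SE 0.20, adjusted p = 1.4e-09, edgeR, Benjamini-Hochberg), or -2.24 relative to the median gene. Mael changed by 2.04 ± 0.18 and Ddx4 by 1.58 ± 0.21, which were 1.12 and 0.66 above the median gene. Piwil2, the PIWI protein present from gonocytes to spermatids, had medians of 108 and 92.8 CPM and missed the threshold (0.73 ± 0.31, adjusted p = 0.053, edgeR, Benjamini-Hochberg), at -0.19 relative to the median gene. It passed without Mlh3-/- 6 (0.86) or without wild-type 4 (0.79), and turned to -0.78, past the threshold, without the mt-Rnr2 limit. The median of the 10 genes was 1.81 and that of all genes 0.92.

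Of 18 other pathway genes tested, 10 rose and 2 fell, with a median of 0.77. Pnldc1, the trimmer of piRNA 3′ ends (5.17), Henmt1, which methylates those ends (3.67), and Pld6, the mitochondrial nuclease of piRNA processing (3.03), were the largest gains. Pnldc1 stood at -0.35 by DESeq2. Tex15 fell by 5.34 on the log2 scale.

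From pachytene to meiotic division in wild-type testes the genes split into 2 sets. All 9 genes tested were called, 6 lower and 3 higher, where 39.4% of all genes tested were called (11 against 9 libraries). The stricter count filter called 7 of them and 66.6% of all genes tested. Piwil1 fell from a median of 581 CPM (460 to 844.5) to 76.4 CPM (12.1 to 143), and the ranges did not overlap. Its fold change was 5.64-fold lower (log2 -2.50 ± 0.11, adjusted p = 2.3e-103, edgeR, Benjamini-Hochberg). Tdrd5 went from 81.9 to 232 CPM to 0 to 45.3 CPM (-2.34 ± 0.19), and Tdrd1 from 151 to 210.2 CPM to 0 to 62.1 CPM (-1.90 ± 0.16), again with no overlap. Mov10l1 (-1.60 ± 0.19) and Piwil2 (-1.47 ± 0.20) did not overlap between the classes either, and Tdrd9 fell by 0.68 on the log2 scale. In dividing cells the medians of Piwil1 (76.4 CPM), Tdrd1 (32.97), Tdrd5 (15.4) and Mov10l1 (23.5) were already below the wild-type Sertoli levels of 145, 58.0, 19.4 and 67.7 CPM. These Sertoli levels rest on 15, 6, 2 and 7 UMIs.

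Tdrd6, Ddx4 and Mael were called higher in dividing cells by edgeR, by 0.50 ± 0.09, 0.41 ± 0.09 and 0.28 ± 0.08, but none of them by DESeq2, which called 49.4% of all genes it tested and had Mael at -0.11. The median gene moved by 0.33 with edgeR and -0.05 with DESeq2, with 67.2% and 44.6% of called genes higher. Relative to the median gene the 3 changes were 0.17, 0.08 and -0.05. In CPM the medians were 418 and 520.0 for Tdrd6, 603 and 579.5 for Ddx4, and 1489 and 1488 for Mael. The median of the 9 genes was -1.47. Of 18 other pathway genes, 10 fell, among them Fkbp6 (-1.90), a piRNA co-chaperone, Exd1 (-1.58) and Prmt5 (-1.49), the enzyme that methylates arginines in PIWI proteins, and 4 rose, Tex15 by 4.73, with a median of -0.64.

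Round spermatids were lower than dividing cells in 8 of 9 genes tested, where 49.2% of all genes tested were called (11 against 11 libraries). Under the stricter count filter 8 were called too, but so were 83.8% of all genes tested. Piwil1 fell by 1.29 on the log2 scale (SE 0.16), Tdrd5 by 1.24, Mov10l1 by 1.22, Piwil2 by 1.10, Tdrd9 by 0.88, Tdrd6 by 0.84, Tdrd1 by 0.70 and Ddx4 by 0.54. Many of these levels reached background: the round spermatid median of Piwil1 was 25.7 CPM against 85.3 and 145 in wild-type Leydig and Sertoli cells, and that of Tdrd1 17.8 against 0 and 58.0. The somatic levels rest on 3 and 15 UMIs for Piwil1 and on 0 and 6 for Tdrd1. Tdrd6, at 94.0 to 260.4 CPM, had a median of 220.0, above its wild-type Leydig and Sertoli levels of 142 and 184 CPM, but wild-type 2 (127.0) and wild-type 3 (94.0) lay below both and wild-type 1 (159) below the latter. Ddx4, at 146 to 412.5 CPM, had a median of 319, above the 56.9 and 232 CPM of those cells, but wild-type 2 (204) and wild-type 3 (146) lay below the latter. Mael held a median of 1157 CPM, against 1488 in dividing cells. Wild-type 1, with 26 round spermatids, was at 260.5 CPM, below the 597 and 599.8 CPM of wild-type Leydig and Sertoli cells, and the other 10 libraries were above both. The change of Mael, 0.05 ± 0.08, was not called (95% interval -0.10 to 0.20). DESeq2 called it lower, at -0.11, as did the fit restricted to classes of at least 50 cells, at -0.22. The median change was -0.88 over the 9 genes and -0.07 over all genes. Of 18 other genes 9 fell, led by Prmt5 (-2.45), Pld6 (-1.73) and Mybl1 (-1.69), and 3 rose, with Gtsf1, a partner of PIWI proteins in silencing, at 1.23. Their median was -0.47.

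Elongating spermatids differed from round spermatids in 6 of 9 genes, 4 lower and 2 higher, where 36.6% of all genes tested were called (11 against 11 libraries). The stricter count filter called 5 of them and 69.0% of all genes tested. Ddx4 fell to 34.9 to 148 CPM, median 75.8 (log2 -1.54 ± 0.12), and Tdrd6 to 42.6 to 101 CPM, median 64.7 (-1.20 ± 0.13), against wild-type Leydig and Sertoli levels of 56.9 and 232 CPM for Ddx4 and 142 and 184 CPM for Tdrd6. Mael fell by 0.65 on the log2 scale (SE 0.08), to a median of 495.5 CPM, below the 597 and 599.8 CPM of wild-type Leydig and Sertoli cells. Tdrd9 (-0.90 ± 0.35, adjusted p = 0.029, edgeR, Benjamini-Hochberg) was called in none of 9 alternatives and in 3 of 11 fits without a library. Mov10l1 (1.33 ± 0.34) and Piwil1 (1.23 ± 0.20) were called higher, but their medians, 9.53 and 46.2 CPM, lay below the wild-type Leydig levels of 28.4 and 85.3 CPM. Those Leydig levels rest on 1 and 3 UMIs and are uncertain. The median gene moved by -0.33 with edgeR and -0.11 with DESeq2, with 36.4% and 47.0% of called genes higher, and the 9 genes had a median of 0.15. Other pathway genes fell in 7 of 18 cases and rose in none, with a median of -0.50, namely Tex15 (-2.31), Tdrd7 (-1.80), Rnf17 (-1.48) and Henmt1 (-1.40) as the largest. Piwil4 was not tested in any of the 3 steps after pachytene.

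**Figure D2:**
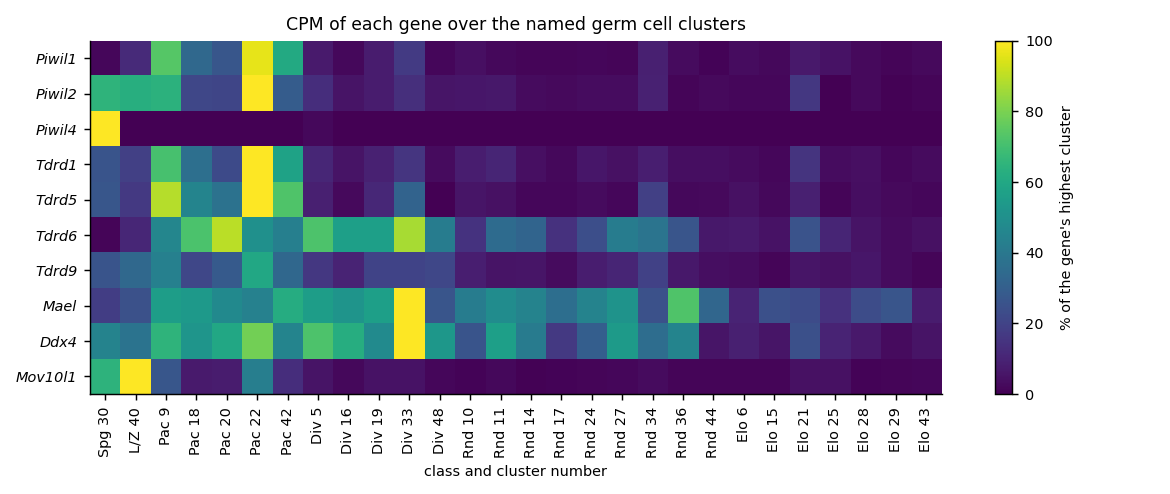
Level of each gene (rows) in each named germ cell cluster (columns, by class and cluster number), as a percent of the gene's highest cluster among all 50, unnamed ones included. Piwil2, Tdrd1 and Tdrd5 peak in pachytene cluster 22, Mov10l1 in leptotene/zygotene cluster 40, Piwil4 in spermatogonia cluster 30, and Mael and Ddx4 in division cluster 33. Clusters include the sorted libraries, and 212 of the 338 cells of cluster 30 were sorted spermatogonia.

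Within the pachytene class the genes did not peak in the same cells. Cluster 22, which had the highest mean level of leptotene/zygotene markers (27.7% of their peak), was highest for Piwil2, Tdrd1 and Tdrd5. Tdrd6 was near its highest in cluster 20, where those markers stood at 5.0%. Piwil1, Tdrd6 and Tdrd9 had their peak in cluster 41, which stayed unnamed. Its best class was pachytene, with those markers at a mean share of 0.494 of their peak, just under the 0.5 needed for a name. Over the 50 clusters with at least 20 cells, log2(CPM + 20) of Tdrd5 correlated with Tdrd1 at r = 0.938 and with Piwil1 at 0.93, Mov10l1 with Piwil2 at 0.904, and Ddx4 with Tdrd6 at 0.844. Mael and Mov10l1 did not move together (r = -0.028). The genes outside the pathway whose pattern was most like that of Piwil1 were Cers3 (0.964), Mllt10 (0.955) and Mgll (0.943), out of 11874. For Tdrd6 they were Pde1c (0.967), Adam2 (0.967) and Morc2b (0.966). For Ddx4 they were Tuba3a (0.95), Mum1 (0.943) and Ash2l (0.941), and for Piwil2 the leading ones were Hmgb2 (0.917) and Nap1l1 (0.911). With log2(CPM + 1) instead, Hmgb2 was not among the first 3 for Piwil2, and Lrwd1 (0.94) took the place of Ash2l. The genes named for Piwil1 and Tdrd6 stayed the same. These correlations describe clusters that share libraries, the sorted ones included, and differ in depth.

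The sorted libraries gave levels of the stages that did not pass through the clusters, with 1 library each and so no test. Their cells also entered the clusters above, so the views are not independent. Of 224 sorted spermatogonia, 212 fell into the spermatogonia class, but 9 of 188 sorted primary spermatocytes were in the pachytene class and 92.55% had no name. Without the mt-Rnr2 limit 186 of 198 sorted primary spermatocytes, or 93.94%, were in the pachytene class, and 232 of 244 sorted spermatogonia in theirs. Of the sorted secondary spermatocytes 4 fell into the division class (15 without that limit), while 45 were in the round and 16 in the elongating spermatid class, and of 291 sorted spermatids 51 and 53 were. No name was given to 48.7% of the secondary spermatocytes and 62.2% of the spermatids, so the classes check the labels of these 2 libraries only in part. Sorted spermatogonia differed from the other sorted cells in age, transgene and dissociation. Intervals are 95% Poisson and cover counting error only.

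Piwil4 gave 28 UMIs in the library of sorted spermatogonia, 24.0 CPM (15.9 to 34.6), and no UMI in that of primary spermatocytes, which allows up to 34.4 CPM. Piwil1 stood at 11.1 CPM in spermatogonia, 495 CPM (371 to 647) in primary spermatocytes, 34.3 CPM in secondary spermatocytes and 33.7 CPM in spermatids. Tdrd6 gave 1 UMI in spermatogonia (0.856 CPM) and stood at 411, 175.5 and 173 CPM in the later libraries. Both genes thus had little RNA in postnatal spermatogonia. Mov10l1 was at 434 CPM (397 to 473) in spermatogonia, 159 CPM (92.5 to 254) in primary spermatocytes and 11.5 and 12.7 CPM in the later 2. Piwil2 was at 139.5 CPM in spermatogonia and 112 CPM in primary spermatocytes, with overlapping intervals. Tdrd1 (104 and 131 CPM), Tdrd5 (67.6 and 103 CPM), Tdrd9 (74.5 and 56.0 CPM) and Ddx4 (394 and 448 CPM) also had intervals that overlapped between these 2 libraries. Mael was at 424, 934, 1126 and 654 CPM from spermatogonia to spermatids.

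**Figure D3:**
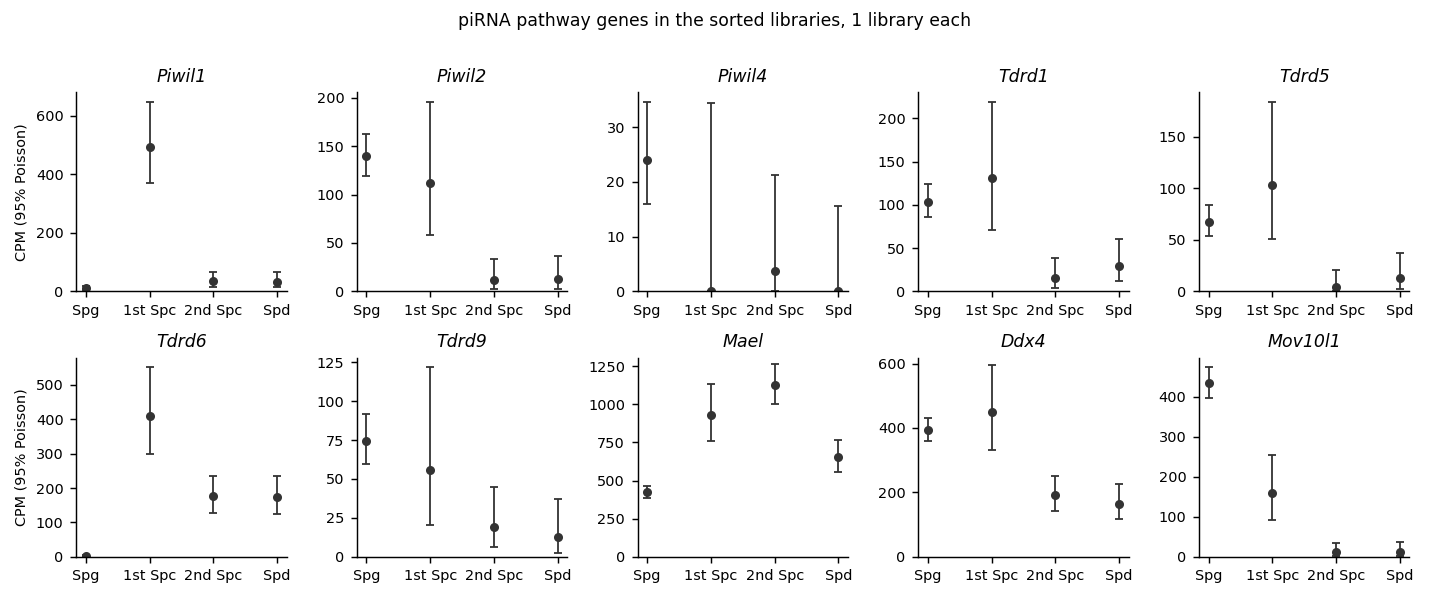
CPM of each gene (vertical axis) in the libraries of sorted spermatogonia (Spg), primary spermatocytes (1st Spc), secondary spermatocytes (2nd Spc) and spermatids (Spd). Points are single libraries and bars 95% Poisson intervals, so they cover counting error only; Piwil1 is at 495 CPM in primary spermatocytes and below 35 CPM elsewhere.

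Strains were compared on whole libraries, where the number of cells of a type and the RNA per cell cannot be told apart. All strain comparisons share the wild-type libraries. In Mlh3-/- testes, which lack a protein of meiotic crossing over, 8 of the 10 genes were called, 7 higher and 1 lower, where 61.3% of all genes tested were called (6 against 11 libraries). With the stricter count filter 9 of these genes and 75.5% of all genes tested were called. The makeup of these testes differed at the same time: pachytene cells were 42.46% of Mlh3-/- and 3.22% of wild-type cells, spermatogonia 1.76% and 0.11%, Leydig cells 6.64% and 0.17%, and Sertoli cells 6.28% and 0.43%. These are shares of all cells that passed the filters, of which 40.02% in Mlh3-/- and 68.33% in wild-type had no name. Without the mt-Rnr2 limit, pachytene cells were 28.04% of Mlh3-/- and 3.56% of wild-type cells. No Mlh3-/- cell was in a spermatid class under either filter. The part of this makeup in the differences was not tested on whole libraries.

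Piwil1 stood at 59.9 to 201 CPM in wild-type (median 164) and at 423 to 1114 CPM in Mlh3-/- libraries (median 822), with no overlap. It was 3.45-fold higher (log2 1.79 ± 0.21, adjusted p = 9.0e-09, edgeR, Benjamini-Hochberg). Piwil2 was at 21.5 to 36.5 CPM and at 87.4 to 151 CPM, again with no overlap (1.59 ± 0.15). Piwil4 gave 21 UMIs, at least 1 in each of the 6 Mlh3-/- libraries, against 2 UMIs in 2 of 11 wild-type libraries, a ratio of pooled CPM of 17.5 with a counting interval of 4.28 to 154. Its fitted log2 fold change was 3.48 ± 0.82 (adjusted p = 0.00049, edgeR, Benjamini-Hochberg). Every PIWI gene was thus higher.

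Tdrd5 (1.57 ± 0.20), Tdrd1 (1.36 ± 0.20) and Tdrd9 (1.00 ± 0.17) were higher without overlap of the strains, as was Mov10l1, at 14.0 to 44.7 CPM in wild-type and 142 to 204 CPM in Mlh3-/- (1.56 ± 0.15). Mael was the gene that fell, by 0.97 on the log2 scale (SE 0.26, adjusted p = 0.0020), from a median of 1048 to 787 CPM, with overlapping ranges. Tdrd6 (0.01 ± 0.17) and Ddx4 (-0.26 ± 0.15, adjusted p = 0.15) were not called by edgeR with Benjamini-Hochberg adjustment. Their direction depended on the scaling, since their median CPM was higher in Mlh3-/-, 446 against 311 for Tdrd6 and 470 against 373 for Ddx4. Ddx4 was called lower by DESeq2 and without Mlh3-/- 1 (-0.54), Mlh3-/- 4 (-0.49) or CNP 1 (-0.42). The 10 genes had a median of 1.46, all genes 0.07 and the other pathway genes 0.84, with 11 of 19 higher and 3 lower. Gtsf1 fell by 2.25, and Pnldc1 (1.37), Fkbp6 (1.34) and Morc1 (1.21), a gene of transposon silencing, rose.

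**Figure D4:**
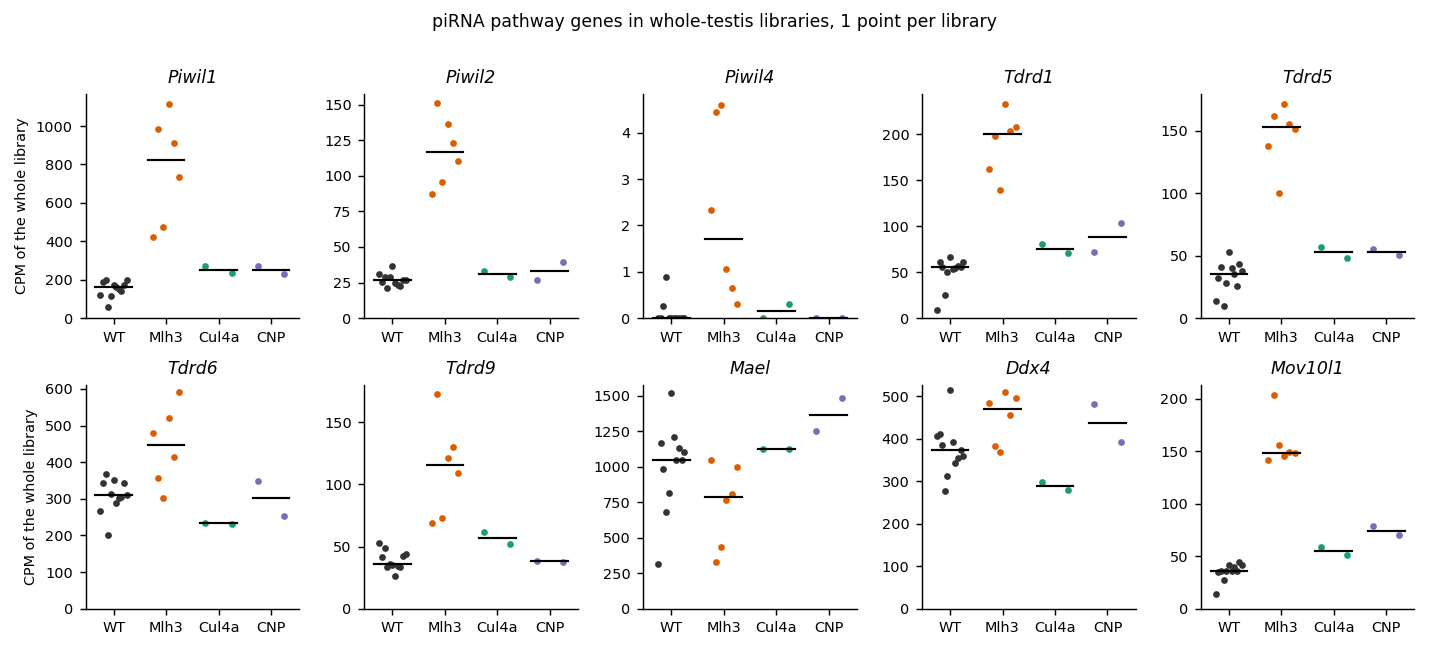
CPM of each gene (vertical axis) over all UMIs of a whole-testis library, by strain. Each point is 1 library and bars are medians; all 6 Mlh3-/- libraries lie above the 11 wild-type libraries for Piwil1, Piwil2, Tdrd1, Tdrd5, Tdrd9 and Mov10l1.

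Whole libraries of the other strains gave no called member by edgeR. In Cul4a-/- testes, which lack a ubiquitin ligase scaffold, 2.06% of all genes tested were called. Of the 10 genes, 4 reached an unadjusted p below 0.05 by edgeR. The share of all genes at that looser threshold is not given, so that count cannot be set against the 2.06%. Ddx4 and Mov10l1 were called by DESeq2, which makes 2, where it called 6.13% of all genes it tested. Mov10l1 was at 58.4 and 51.5 CPM, above the highest wild-type library at 44.7 CPM (0.58 ± 0.21, adjusted p = 0.15, edgeR, Benjamini-Hochberg). Among other pathway genes Morc1 (1.61) and Fkbp6 (1.02) rose. In CNP testes 0.543% of all genes tested were called. An unadjusted p below 0.05 by edgeR, again with no share of all genes given, was reached by 1 of the 10 genes. DESeq2 called that 1, Mov10l1, with 5.88% of all genes it tested. It was at 78.7 and 70.1 CPM (0.89 ± 0.23, adjusted p = 0.076, edgeR, Benjamini-Hochberg) and was called without wild-type 1 (0.84, adjusted p = 0.029). No other pathway gene was called there. The median change of the 10 genes was 0.55 in Cul4a-/- (all genes 0.12) and 0.25 in CNP (all genes -0.03).

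Levels within the pachytene class were compared next. The study places the arrest of Mlh3-/- cells at mid-pachytene and saw no obvious change in them apart from Mlh3. Its cut-off for wild-type against mutant cells within clusters was a log-fold change of 1. In Mlh3-/- pachytene cells 7 of 9 genes tested were called, 6 higher and 1 lower, where 16.5% of all genes tested were called (6 against 9 libraries). Piwil2 stood at 45.04 to 128 CPM in wild-type and at 118 to 298.5 CPM in Mlh3-/-, with medians of 71.3 and 155.5 (0.98 ± 0.17, adjusted p = 5.7e-06, edgeR, Benjamini-Hochberg). Mov10l1 ranged from 70.9 to 109.7 CPM in wild-type and from 149.6 to 298.5 CPM in Mlh3-/-, without overlap (0.93 ± 0.15). Piwil1 was at 460 to 844.5 CPM and at 645 to 2260 CPM (0.80 ± 0.16). Tdrd1 did not overlap, at 151 to 210.2 CPM and 242 to 384 CPM (0.65 ± 0.14).

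Tdrd9 (0.55 ± 0.16) and Tdrd5 (0.54 ± 0.16) were also higher, and Mael was lower (-0.49 ± 0.16, adjusted p = 0.026, edgeR, Benjamini-Hochberg). Each of these 3 calls depended on a library. Tdrd5 was lost without wild-type 11 (0.46, adjusted p = 0.058), Tdrd9 without Mlh3-/- 5 (0.42, adjusted p = 0.11), and Mael without Mlh3-/- 4 (-0.45, adjusted p = 0.062) or wild-type 4 (-0.45, adjusted p = 0.055). Tdrd6 (0.23, 95% interval -0.06 to 0.52) and Ddx4 (0.00, -0.28 to 0.28) were not called. The 9 genes had a median of 0.55 and all genes 0.06. Without the mt-Rnr2 limit, which removed most Mlh3-/- barcodes, 6 genes were called, all higher, where 19.7% of all genes tested were, and Mael (-0.52, adjusted p = 0.072, edgeR, Benjamini-Hochberg) was not. The part of that limit in these levels was not tested further. The background in Sertoli cells also differed between the strains. Sertoli cells of Mlh3-/- against wild-type testes held Piwil1 at 399.9 against 145 CPM, Piwil2 at 79.2 against 19.4, Tdrd5 at 95.02 against 19.4, Tdrd1 at 107 against 58.0 and Mael at 447 against 599.8, in the same direction as the pachytene calls. Mov10l1 (67.3 against 67.7 CPM) and Tdrd9 (39.6 against 38.7 CPM) were close to each other there. In Leydig cells Piwil1 (110.7 against 85.3 CPM), Piwil2 (9.23 against 0), Tdrd1 (18.5 against 0), Mov10l1 (33.8 against 28.4) and Mael (83.0 against 597) went in the direction of the calls. Tdrd5 (24.6 against 28.4 CPM) and Tdrd9 (15.4 against 28.4) went the other way. The Sertoli levels rest on 2 to 113 UMIs each and the Leydig levels on 0 to 36. Their part in the pachytene levels was not tested.

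The strains did not draw their pachytene cells from the same clusters. Cluster 22, where Piwil2, Tdrd1 and Tdrd5 peaked, held 27.1% of the Mlh3-/-, 30.7% of the Cul4a-/- and 7.81% of the wild-type pachytene cells. Cluster 42 held 40.4% of the Cul4a-/- but 0.124% of the wild-type pachytene cells, and cluster 18 held 63.0% of the CNP cells. In cluster 9 alone, which is not the only cluster that all strains hold, 2 genes were called in Mlh3-/-, Piwil2 (0.88) and Piwil1 (0.66), where 3.17% of all genes tested were called. None was called in Cul4a-/-, where 1.17% of all genes tested were. That restriction was chosen after the data were seen.

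**Figure D5:**
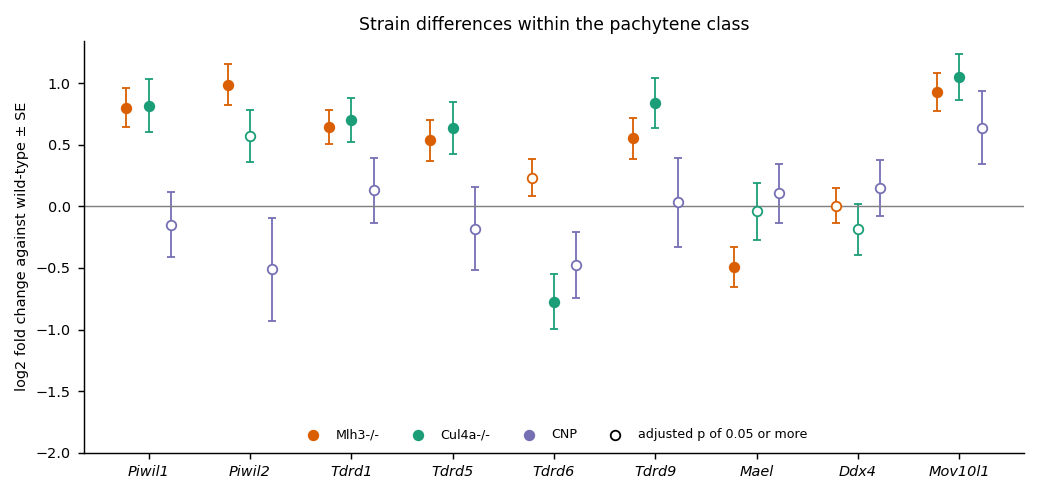
Log2 fold change against wild-type in summed pachytene counts (vertical axis, bars ± SE) for Mlh3-/- (6 libraries), Cul4a-/- (2) and CNP (2) against 9 wild-type libraries; filled points passed an adjusted p of 0.05. Mov10l1 is at 0.93 in Mlh3-/- and 1.04 in Cul4a-/-, and the filled point of Cul4a-/- below 0 is Tdrd6 at -0.78.

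Cul4a-/- pachytene cells differed from wild-type in 6 of 9 genes, 5 higher and 1 lower, where 13.5% of all genes tested were called (2 against 9 libraries). Mov10l1 was at 185 and 189 CPM (1.04 ± 0.19), Tdrd9 at 148 and 165 CPM against 58.6 to 106 in wild-type (0.84 ± 0.20), and Piwil1 at 1000 and 1141 CPM (0.81 ± 0.21). Tdrd1 (0.70 ± 0.18) and Tdrd5 (0.64 ± 0.21) were higher too. Tdrd6 was lower, at 262 and 276 CPM against 381 to 596 in wild-type (-0.78 ± 0.22, adjusted p = 0.014, edgeR, Benjamini-Hochberg). For Mov10l1, Tdrd9, Piwil1, Tdrd1 and Tdrd6 the Cul4a-/- libraries lay outside the wild-type range. Piwil2 missed the threshold (0.57 ± 0.21, adjusted p = 0.064, edgeR, Benjamini-Hochberg), and passed without Mlh3-/- 2 or wild-type 4.

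Leaving out Cul4a-/- 1 or Cul4a-/- 2, which leaves a lone library assumed to vary like the other groups, lost Piwil1, Tdrd5 and Tdrd6 in both cases and Tdrd1 and Tdrd9 without Cul4a-/- 2. The fold changes stayed near those of both libraries: Tdrd6 was at -0.76 and -0.78, Piwil1 at 0.89 and 0.75, and Tdrd5 at 0.75 and 0.54. Tdrd5 was also lost without CNP 1, Mlh3-/- 3 or 5, or wild-type 5, 6, 7, 8 or 11. Fits without 1 library called 1 to 7 genes. A coarser clustering (Leiden resolution 1) gave 3, a clustering with the pathway genes kept 3, and no mt-Rnr2 limit 1, where 8.46%, 8.97% and 2.28% of all genes tested were called. Sertoli cells of Cul4a-/- held Tdrd6 at 123.5 CPM against 184 in wild-type, Tdrd1 at 116 against 58.0, Tdrd5 at 38.6 against 19.4, Piwil1 at 92.6 against 145, Tdrd9 at 23.2 against 38.7 and Mov10l1 at 15.4 against 67.7, the last 3 in the direction opposite to the pachytene calls, from 2 to 19 UMIs each. The Cul4a-/- mice were also younger than all wild-type mice by the labels. The median change was 0.64 over the 9 genes and 0.11 over all genes, with 63.2% of called genes higher by edgeR and 42.5% by DESeq2. Other pathway genes rose in 7 of 18 cases and fell in 1, with a median of 0.58, against 4 and 1 with a median of 0.24 in Mlh3-/-. In Cul4a-/- the largest were Morc1 (2.29), Fkbp6 (1.44), Wdr77, a cofactor of Prmt5 (1.07), and Tdrkh, a Tudor protein of mitochondria (0.93). In Mlh3-/- they were Gtsf1 (-0.74), Asz1 (0.57), Tdrkh (0.57) and Rnf17 (0.51).

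The direct comparison of Mlh3-/- with Cul4a-/- pachytene cells called Tdrd6 alone, where 17.3% of all genes tested were called (6 against 2 libraries). Tdrd6 stood at 426 to 695.5 CPM in Mlh3-/- and at 262 and 276 CPM in Cul4a-/-, without overlap, a difference of 1.01 ± 0.23 on the log2 scale (adjusted p = 0.0010, edgeR, Benjamini-Hochberg). It was not called in cluster 9 alone, where 2.54% of all genes tested were called, or without the mt-Rnr2 limit, where 11.8% were. For Piwil1 the interval of the difference ran from -0.47 to 0.45, for Mov10l1 from -0.49 to 0.26 and for Piwil2 from -0.01 to 0.84. The 9 genes had a median of -0.06 and all genes -0.01. Of the other pathway genes Mybl1 (0.68) was higher in Mlh3-/- and Morc1 (-1.50) and Fkbp6 (-1.26) were higher in Cul4a-/-, with a median of -0.38 over 18.

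CNP pachytene cells and the round spermatids of Cul4a-/- and CNP gave no call among the 9 genes tested. The round spermatid sets of CNP held 183842 and 194503 UMIs, against 2415564 and 3037173 in Cul4a-/-. A missed threshold in CNP thus rests on few counts and does not show equal levels. In CNP pachytene cells 0.426% of all genes tested were called, and none of the 9 genes passed by DESeq2 (3.06% of all genes). An unadjusted p below 0.05 by edgeR was reached by 1 of the 9. The share of all genes at that looser threshold is not given. Mov10l1 was nearest, at 179 and 137 CPM against 70.9 to 109.7 in wild-type (0.64, 95% interval 0.06 to 1.21). In round spermatids of Cul4a-/- 4.76% of all genes tested were called and in those of CNP 0.46% (2 against 11 libraries each). These cells lay in different clusters: cluster 24 held 46.1% of the Cul4a-/- and 0.102% of the wild-type round spermatids, cluster 14 held 0.395% and 22.0%, and cluster 11 held 44.7% of the CNP and 20.6% of the wild-type ones. In each comparison, 1 of the 9 genes reached an unadjusted p below 0.05 by edgeR, again with no share of all genes given. None passed by DESeq2 (5.57% and 1.54% of all genes). Tdrd1 had the largest change in both, 0.62 (95% interval 0.08 to 1.17) in Cul4a-/- and 1.07 (0.13 to 2.02) in CNP, at levels of 21.7 to 38.1 CPM, between those of Leydig (20.3) and Sertoli cells (97.8). Mael was at 1076 and 1120 CPM in Cul4a-/- and 1280 and 1354 CPM in CNP round spermatids, within the wild-type range of 261 to 1473 CPM. By edgeR, no other pathway gene was called in these 3 comparisons.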

How the data were processed

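Testes were profiled by Drop-seq. The authors demultiplexed with bcl2fastq, aligned reads with STAR 2.5.3a to mm10 (GRCm38) and deposited raw UMI counts per gene and barcode for each library. All 25 tables were used. Another strain of the study is not analysed here. The members and gene lists were chosen with earlier results of these data known.

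Cells with at least 200 UMIs and 50 genes were kept if the square root of their mt-Rnr2 share of UMIs was at most 2 SD. That limit was a cap on the value itself, not centred on the mean. The third of genes with the lowest means was dropped, and cells were clustered (40 components, 20 neighbours, Leiden resolution 2) without the 29 pathway genes. Clusters were named from fixed markers by thresholds set after the clusters were seen. No doublet caller was run. Counts were summed per library and class of at least 10 cells and fitted with edgeR 4.0.16 (quasi-likelihood test after TMM, at least 5 counts, Benjamini-Hochberg over 16413 to 23386 genes), with the library as block between classes. Genes with an adjusted p under 0.05 are called. DESeq2 1.42.0 was the alternative, besides other filters, clusterings and sets of libraries. Those leaving out the Mlh3-/- or the enzymatic libraries and those using shared clusters only were chosen after seeing the data. The procedure was tested on simulated data.

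The text names all 10 members, up to 4 called genes of the other 19 with the largest changes, and the 3 genes most correlated with Piwil1, Piwil2, Ddx4 and Tdrd6, of which 1 is not reported here. Replicate numbers did not pair libraries: correlations of deviations ran from -0.27 to 0.11 over 6 pairs of wild-type and Mlh3-/-, were -0.15 and 0.25 for wild-type and Cul4a-/-, and -0.23 and 0.30 for wild-type and CNP. Gene coordinates are those of GENCODE vM21 and promoter coordinates those of the RefSeq table. Tdrd9 and Piwil1 overlap a gene on the opposite strand and Piwil4 and Tdrd5 an antisense gene, and the sources used here do not give the strand setting of the counting. On the same strand, Tdrd5 overlaps A430050A11Rik, Piwil2 overlaps Gm22725 and Gm24890, and Mov10l1 overlaps Gm23737.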

Additional observations from a re-analysis of the deposited data

Results flagged for a closer look

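In pachytene cells of Mlh3-/-, the library Mlh3-/- 2 stood far above the other 5 for Piwil2, at 298.5 CPM against a next highest value of 171.4, and for Tdrd5, at 383.8 CPM against 214.8. It rests on 10 pachytene cells. The same library was far above the others for Mov10l1 over the whole library, at 204.1 CPM against 155.6. Such gaps were looked for in 28 groups of 4 to 10 libraries, and chance gives about 1 in 20. Without Mlh3-/- 2 the pachytene calls of Piwil2 and Tdrd5 and the whole-library call of Mov10l1 in Mlh3-/- held.

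Tdrd6 moved differently in the pachytene cells of the 2 mutant strains. The direct test of the difference gave a log2 fold change of 1.006 for Mlh3-/- against Cul4a-/-, from values of 0.23 and -0.78 against wild-type. The pachytene cells of the strains lay in different clusters, and the part of that in the difference was not tested apart from the fit within cluster 9, which called none of the 9 genes tested and 2.54% of all genes.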

How the results depend on the processing

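Of the log2 fold changes under other settings, 1247 kept direction and call, 122 lost the call, 30 gained it, 83 uncalled values moved and 9 reversed; in fits without 1 library the counts were 2693, 78, 8, 99 and none. The cause was not tested. Between leptotene/zygotene cells and spermatogonia, called members numbered 1 with DESeq2 (894 of 7451 genes), 1 without the Mlh3-/- libraries (2.78% of all genes) and 10 without the mt-Rnr2 limit (17.5%), under which Tdrd1 stood at 1.957, Tdrd5 at 1.656 and Tex15 at -1.073. Between pachytene and leptotene/zygotene cells, Piwil2 stood at -0.778 and Tdrd9 at -0.151 without that limit, and Pnldc1 at -0.353 with DESeq2. Mael stood at -0.105 in meiotic division and -0.109 in round spermatids with DESeq2, and at -0.218 in round spermatids with at least 50 cells. DESeq2 called 2 members in whole Cul4a-/- libraries (6.13% of all genes) and 1 in whole CNP libraries (5.88%), where mechanically dissociated HiSeq libraries alone gave 1 (1.99%). Those libraries gave 2 in Cul4a-/- round spermatids (2507 of 16695 genes). In Cul4a-/- pachytene cells, a Leiden resolution of 1 gave 3 called members (8.46%), no mt-Rnr2 limit 1 (2.28%), and pathway genes kept in the clustering 3 (8.97%). Between Mlh3-/- and Cul4a-/- pachytene cells, at least 50 cells gave 2 (19.5%) and no mt-Rnr2 limit 0 (11.8%). In clusters picked from those shared by strains, chosen after seeing the data, called members numbered 2 in Mlh3-/- pachytene (3.17%), 0 in Cul4a-/- pachytene (1.17%), 0 between these strains (2.54%) and 1 in Cul4a-/- round spermatids (2.51%). Fits without 1 library gave 1 to 2 between leptotene/zygotene cells and spermatogonia, 0 to 1 in whole CNP libraries and 1 to 7 in Cul4a-/- pachytene cells. With the stricter count filter, called members numbered 2 between leptotene/zygotene cells and spermatogonia (25.3% of all genes). They numbered 7 in Mlh3-/- pachytene (26.2%), 6 in Cul4a-/- pachytene (28.3%) and 1 between these strains (28.2%).

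Labels number the libraries alike across strains, but deviations of same-numbered libraries did not move together in every pair (correlations of -0.27 to 0.11 for wild-type and Mlh3-/-, -0.15 and 0.25 for Cul4a-/-, 0.30 and -0.23 for CNP), so that they share a number only. With a replicate block, called members numbered 3 in whole Cul4a-/- (2.27% of all genes), 3 in whole CNP (4.19%), 2 in Mlh3-/- pachytene (5.49%), 0 in Cul4a-/- pachytene (0.725%), 0 between these 2 (2.78%), and 1 each in Cul4a-/- and CNP round spermatids (2.43% and 3.08%), against 0, 0, 7, 6, 1, 0 and 0 (2.06%, 0.543%, 16.5%, 13.5%, 17.3%, 4.76% and 0.46%) without it. A minimum of 50 cells could not be fitted for the early classes. Few early cells (28 wild-type spermatogonia) limit those comparisons.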

Other observations

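The transcript of Cul4a, which encodes the ubiquitin ligase scaffold disrupted in another of the strains, stood at 109.3 to 179.7 CPM in the 6 whole Mlh3-/- libraries and at 5.60 to 45.7 CPM in the 11 wild-type libraries, without overlap. Cnp, the gene named in the CNP transgene, stood at 7.74 and 2.84 CPM in the CNP libraries and at 0 to 6.21 CPM in wild-type. Both are given as values with no test. Whole-library levels mix cell types, and the shares of these differed between Mlh3-/- and wild-type testes. Between these strains 61.3% of all genes tested were called over whole libraries.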
